A study of Mus musculus with 12 samples.

Results

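The solute carrier 12 (SLC12) family and the WNK kinases were followed in mouse bone marrow neutrophils cultured with bile acids, and 8 of the 29737 genes of the count table make up the set described here. These 8 genes are 5 cation-chloride cotransporters (Slc12a3, Slc12a2, Slc12a4, Slc12a7 and Slc12a9), the kinase Wnk1 and the kinases Stk39 and Oxsr1. They were taken from the table by name, and the higher level of Slc12a3 with taurine-conjugated β-muricholic acid (Tβ-MCA) was part of the reason for the choice. Slc12a3 was thus selected on its CPM with Tβ-MCA and PBS, and the other 7 for belonging to the same family or cascade. The comparison of Tβ-MCA with PBS is therefore given below as a description of all 8 genes, without a test. The study asked how primary bile acids change the phenotype of neutrophils. Wild-type (WT) neutrophils were enriched from bone marrow as Ly6G+ cells with magnetic beads, kept in RPMI medium with fetal bovine serum, and exposed for 24 h to PBS as the control, to taurocholic acid (TCA) at 200 μM, to glycocholic acid (GCA) at 200 μM or to Tβ-MCA, for which the labels state 10 μM and the methods of the study give another dose. For the isolation, the methods of the study describe a separating medium followed by a neutrophil enrichment kit and do not name Ly6G at that step. The animals named in the methods are female C57BL/6 mice, and no animal is tied to a sample. Each of the 4 groups has 3 samples, which the labels number 3, 5 and 6 in the PBS group and 3, 4 and 5 in the groups of the bile acids. The labels do not say whether samples of a group came from separate mice or cultures, so p-values measure only the spread between these samples, which may be technical.

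Cation-chloride cotransporters move chloride across the plasma membrane together with sodium, potassium or both, and so set the chloride content and the volume of a cell. WNK kinases sense chloride and osmotic changes and phosphorylate the related kinases SPAK (encoded by Stk39) and OSR1 (encoded by Oxsr1), which in turn activate the sodium-coupled transporters and inhibit the potassium-coupled ones. Slc12a3 is best known as the thiazide-sensitive transporter of the distal convoluted tubule of the kidney, while chloride efflux and volume regulation are known to accompany neutrophil activation and migration.

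Libraries held between 32757389 and 41375925 counted reads, and 3 counts corresponded to 0.0725 to 0.0916 CPM. CPM are the reads of a gene scaled to a total of the sample. For these 3 counts that total was all reads counted on genes. For the CPM values of genes given below, it was the total over the genes left by the filter on low counts, multiplied by the TMM factor. All 13 neutrophil markers examined were detected, and their summed level lay between 43198 and 65391 CPM. Some libraries stood apart from their groups. On the first principal component of log2 CPM, which carried 30.6% of the variance, Tβ-MCA replicates 3 and 4 lay at 56.1 and 45.8, GCA replicate 4 at 10.1, Tβ-MCA replicate 5 at 3.76, and the other 8 libraries between −18.2 and −11.9. The second component (17.2%) set replicate 3 of all 4 groups (20.1 to 30.7) apart from the remaining libraries (−15.5 to −10.8), and what distinguishes these 4 libraries is not stated in the labels. Fold changes against PBS are therefore given with and without Tβ-MCA replicate 5 and GCA replicate 4, and within the replicate number where that number moved with a gene.

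Positions are those of the deposited table on mouse GRCm38. Slc12a3 spans chr8:94329201-94366214 on the plus strand, and its nearest listed neighbours, which lie 1101 bp before its start and 11658 bp after its end, had at most 0.311 CPM in any sample. Slc12a4 lies on the same chromosome at chr8:105943590-105966097 on the minus strand and shares 361 exon bases with Gm16156 on the opposite strand, which had 1.11 to 3.47 CPM. The strand setting of the counting is not given in the sources used here, so part of the reads of Slc12a4 and Gm16156 could not be told apart. Further genes are Slc12a7 at chr13:73763697-73816743 (plus), Slc12a9 at chr5:137314558-137333597 (minus), Wnk1 at chr6:119923969-120038672 (minus), Stk39 at chr2:68210445-68472268 (minus) and Oxsr1 at chr9:119238432-119322427 (minus). In GENCODE vM21, Slc12a7 starts further upstream, at base 73733094, and the other 7 of the 8 genes have the span of the deposited table.

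The 250 bases before the RefSeq transcription start (GRCm38.p6) are shown for Slc12a3 and for the genes Slc12a4, Slc12a7 and Stk39, whose levels were lower in Tβ-MCA replicates 3 and 4, so that the promoter of the gene with higher levels can be read beside those of the genes with lower levels. Each is written 5′ to 3′ on the strand of its gene. Capitals mark the GC box (GGGCGG on either strand, so also CCGCCC), the TATA box (TATAAA) and the half-site of nuclear receptors (AGGTCA).
Slc12a3, chr8:94328958-94329207, plus strand: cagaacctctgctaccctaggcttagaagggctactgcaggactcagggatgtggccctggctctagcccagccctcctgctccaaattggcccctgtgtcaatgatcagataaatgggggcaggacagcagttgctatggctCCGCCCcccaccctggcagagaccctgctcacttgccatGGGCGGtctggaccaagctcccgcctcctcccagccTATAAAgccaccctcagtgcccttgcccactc
Slc12a4, chr8:105966116-105966365, minus strand: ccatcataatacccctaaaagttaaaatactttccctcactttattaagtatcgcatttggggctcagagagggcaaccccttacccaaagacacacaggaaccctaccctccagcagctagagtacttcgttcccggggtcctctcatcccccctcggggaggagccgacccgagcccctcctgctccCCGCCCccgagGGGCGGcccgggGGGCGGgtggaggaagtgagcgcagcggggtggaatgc
Slc12a7, chr13:73763447-73763696, plus strand: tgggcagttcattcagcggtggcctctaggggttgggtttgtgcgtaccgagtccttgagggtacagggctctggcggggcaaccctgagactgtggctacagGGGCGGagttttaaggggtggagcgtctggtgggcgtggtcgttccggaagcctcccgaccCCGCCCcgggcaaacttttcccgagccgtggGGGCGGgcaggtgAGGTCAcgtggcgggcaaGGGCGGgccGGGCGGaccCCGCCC
Stk39, chr2:68471982-68472231, minus strand: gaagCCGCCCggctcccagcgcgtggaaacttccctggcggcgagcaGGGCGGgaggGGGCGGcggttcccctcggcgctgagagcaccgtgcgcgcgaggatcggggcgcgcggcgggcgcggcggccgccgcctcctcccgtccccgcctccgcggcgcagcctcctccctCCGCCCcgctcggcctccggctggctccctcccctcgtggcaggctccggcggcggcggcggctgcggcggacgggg

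Slc12a3 was the only one of the 7 genes with a promoter window examined that held TATAAA, a sequence found in 12.4% of the 32851 windows of this length in the RefSeq table. Its window held 3 CpG dinucleotides at 61.2% G and C, whereas those of Slc12a4, Slc12a7 and Stk39 held 13, 21 and 43 CpG at 60.8%, 68.8% and 82.4% G and C. Over all windows the median was 6 CpG and 52.4% G and C. GGGCGG, present in 32.7% of all windows, occurred 2 times before Slc12a3, 3 times before Slc12a4, 6 times before Slc12a7 and 4 times before Stk39. The windows of Slc12a9, Wnk1 and Oxsr1 held 16, 26 and 21 CpG. AGGTCA (14% of all windows) was found 1 time, before Slc12a7, and TGANTCA, the AP-1 motif (6.75% of all windows), before none of the 7 genes. These are matches of letters within these windows and say nothing about binding. The RefSeq start of Stk39 lies 287 bp from the start in the deposited table, and that of Slc12a3 lies 7 bp from it. Slc12a7 has 2 RefSeq starts, and only the window of the one nearest the deposited start was examined. The promoter of Slc12a2, whose low level was also below the PBS samples in Tβ-MCA replicates 3 and 4, was not examined here.

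Slc12a3, the thiazide-sensitive sodium-chloride cotransporter (NCC), had a higher level in every Tβ-MCA sample than in any PBS sample. In PBS replicates 3, 5 and 6 it had 1.72, 2.53 and 3.72 CPM (60, 86 and 138 counts), a mean of 2.66 ± 1.01 CPM (SD, n = 3). In Tβ-MCA replicates 3, 4 and 5 it had 15.3, 20.8 and 8.81 CPM (511, 772 and 329 counts), a mean of 15.0 ± 6.03 CPM (SD, n = 3). The lowest Tβ-MCA sample, replicate 5, thus lay above the highest PBS sample, and the groups did not overlap, as was the case for 27% of the 16761 genes tested in this comparison (14.1% in the direction of higher Tβ-MCA). The fitted log2 fold change of Slc12a3 was 2.49 ± 0.65 (SE), a 5.61-fold difference, and 2.76 ± 0.68 without Tβ-MCA replicate 5. Leaving out any 1 of the 6 libraries gave values between 2.17 and 2.82. Within replicate number 3 the levels were 15.3 against 1.72 CPM and within number 5 they were 8.81 against 2.53 CPM.

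Under TCA, Slc12a3 had 3.29, 3.53 and 2.55 CPM in replicates 3, 4 and 5, all within the range of the PBS samples (log2 fold change 0.23 ± 0.68 SE, edgeR quasi-likelihood test, Benjamini-Hochberg adjusted p = 0.9999). Under GCA, its level was 1.75, 11.9 and 4.02 CPM (62, 417 and 155 counts). GCA replicate 3 was close to the lowest PBS sample, replicate 5 slightly above the highest, and replicate 4 lay between the Tβ-MCA samples 5 and 3. The log2 fold change of GCA against PBS was 1.14 ± 0.66 (SE) and did not pass the test (edgeR, adjusted p = 0.999), and without GCA replicate 4 it was 0.12 ± 0.47. When no filter on low counts was applied, edgeR gave an adjusted p of 3.13e-08 for a log2 fold change of 1.15 with an SE of 0.17, whereas the other alternatives gave adjusted p from 0.952 to 1, and the cause of that change of call was not tested. Over all 12 samples the highest CPM of Slc12a3 was 12.1 times the lowest, and 99.7% of the genes tested had a smaller SD of log2 CPM. This spread includes the Tβ-MCA and PBS values on which Slc12a3 was chosen, so its rank is a description only.

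**Figure D1:**
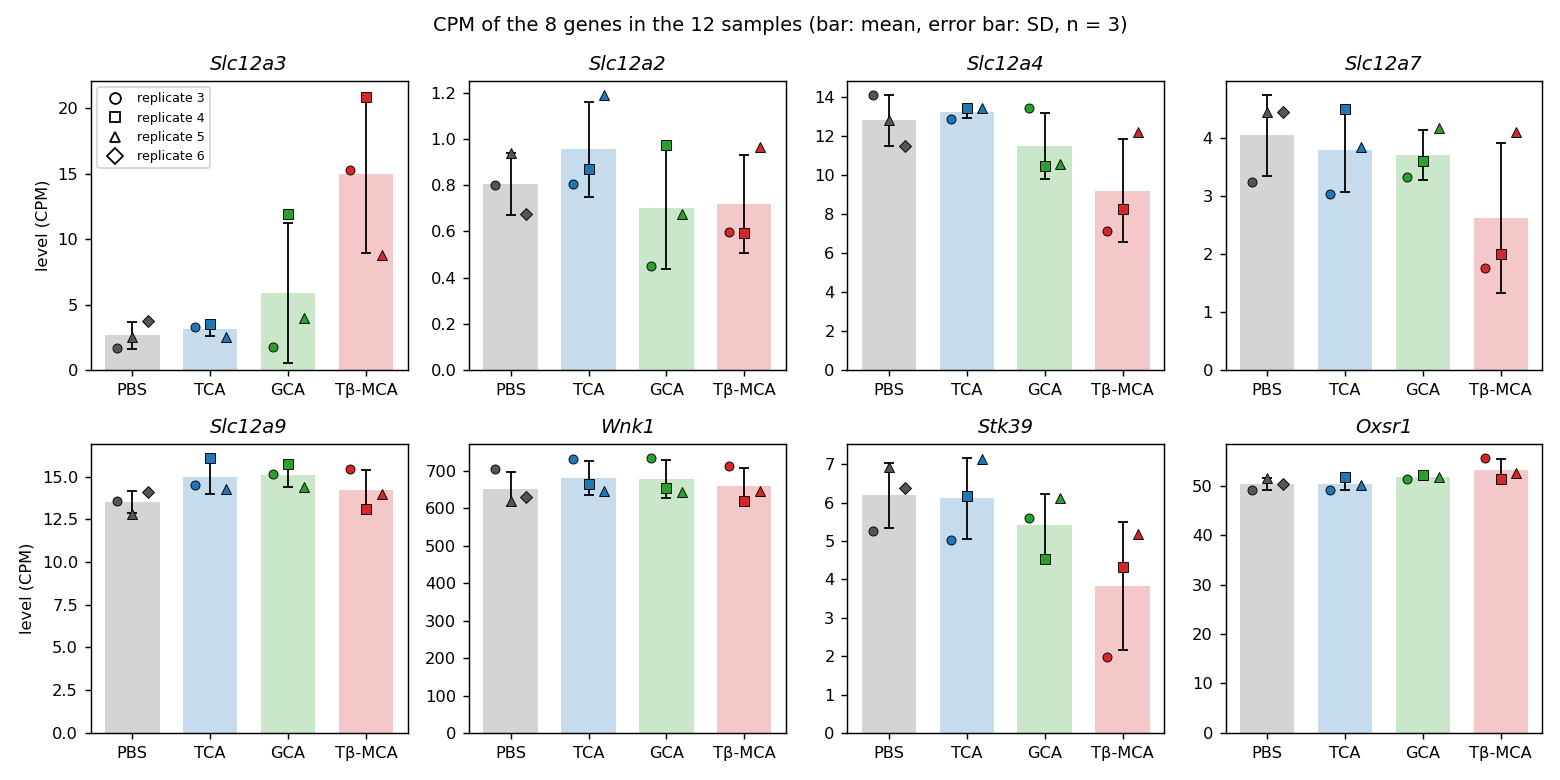
Level (CPM, linear axis from 0) of each of the 8 genes in the 12 samples, with bars for group means, error bars for the SD of 3 samples and symbols for the replicate number. Slc12a3 reached 8.81 to 20.8 CPM in the Tβ-MCA samples and 11.9 CPM in GCA replicate 4, against 1.72 to 4.02 CPM in the other 8 samples.

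Slc12a2 encodes NKCC1, the widely expressed sodium-potassium-chloride cotransporter that loads cells with chloride, and lies at chr18:57878678-57946821 on the plus strand. It was at the lower limit of what these libraries measured well, with 16 to 44 counts per sample. Its level was 0.803, 0.942 and 0.674 CPM in PBS replicates 3, 5 and 6 and 0.598, 0.594 and 0.964 CPM in Tβ-MCA replicates 3, 4 and 5. These ranges overlapped. TCA samples had 0.806, 0.870 and 1.19 CPM and GCA samples 0.451, 0.974 and 0.674 CPM. The log2 fold change against PBS was −0.16 ± 0.34 (SE) with Tβ-MCA, 0.25 ± 0.33 with TCA and −0.20 ± 0.34 with GCA. It was −0.43 ± 0.37 without Tβ-MCA replicate 5 and −0.51 ± 0.36 without GCA replicate 4, so that differences of the size of the standard errors were not detectable at this depth.

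Slc12a4 and Slc12a7 encode the potassium-chloride cotransporters KCC1 and KCC4, which let chloride leave the cell together with potassium. Slc12a4 had 14.1, 12.8 and 11.5 CPM in PBS replicates 3, 5 and 6 and 7.15, 8.26 and 12.2 CPM in Tβ-MCA replicates 3, 4 and 5. Tβ-MCA replicates 3 and 4 lay below every PBS sample and replicate 5 lay among them. Its fitted log2 fold change was −0.47 ± 0.16 (SE) with all Tβ-MCA samples and −0.73 ± 0.14 without replicate 5. Gm16156, which overlaps Slc12a4 on the opposite strand, had 1.44, 1.11 and 2.06 CPM in the Tβ-MCA samples and 2.02 to 3.47 CPM with PBS, and the part of its reads in the level of Slc12a4 was not tested.

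For Slc12a7 the PBS samples had 3.24, 4.44 and 4.45 CPM and the Tβ-MCA samples 1.77, 2.00 and 4.10 CPM. As for Slc12a4, Tβ-MCA replicates 3 and 4 were below the PBS samples and replicate 5 was within their range. The log2 fold change was −0.62 ± 0.27 (SE), or −1.10 ± 0.22 without Tβ-MCA replicate 5. Replicate 3 had the lowest level of Slc12a7 in every group, with 3.24, 3.04, 3.32 and 1.77 CPM in PBS, TCA, GCA and Tβ-MCA. Within number 3 the Tβ-MCA and PBS samples thus had 1.77 and 3.24 CPM, and within number 5 they had 4.10 and 4.44 CPM. With TCA and GCA, Slc12a4 (10.5 to 13.4 CPM) and Slc12a7 (3.04 to 4.50 CPM) overlapped the PBS samples, and neither passed the test (edgeR, adjusted p = 0.9999 with TCA and 0.999 with GCA). With GCA the log2 fold change of Slc12a4 was −0.15 ± 0.16 (SE) and that of Slc12a7 −0.13 ± 0.26, and without GCA replicate 4 they were −0.09 ± 0.18 and −0.11 ± 0.31.

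Slc12a9 encodes a more distant family member whose transport activity is poorly defined. It was among the steadiest of the 8 genes, with 12.8 to 16.1 CPM over the 12 samples and a highest level 1.26 times the lowest. PBS samples had 13.6, 12.8 and 14.1 CPM, TCA samples 14.5, 16.1 and 14.3 CPM, and GCA samples 15.2, 15.8 and 14.4 CPM. All 3 samples of TCA and all 3 of GCA thus lay above the PBS samples, by log2 fold changes of 0.15 ± 0.09 (SE) and 0.16 ± 0.09. All samples of the bile acid lay above the PBS samples for 4.91% of all genes tested with TCA and for 4.71% with GCA, and neither difference of Slc12a9 passed the test (edgeR, adjusted p = 0.9999 and 0.999). Its Tβ-MCA samples (15.5, 13.1 and 14.0 CPM) overlapped the PBS samples, with a log2 fold change of 0.07 ± 0.09. Without Tβ-MCA replicate 5 this value was 0.08 ± 0.11, and without GCA replicate 4 the value of GCA was 0.13 ± 0.11.

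Wnk1, the chloride-sensing kinase at the top of the cascade, was by far the most abundant member and hardly varied between groups. It had 706, 620 and 632 CPM in PBS replicates 3, 5 and 6, and 712, 621 and 648 CPM in Tβ-MCA replicates 3, 4 and 5. TCA samples had 734, 666 and 647 CPM and GCA samples 736, 656 and 643 CPM. Replicate 3 was the highest of its group in all 4 groups (706 to 736 CPM), and the remaining 8 libraries lay between 620 and 666 CPM. Log2 fold changes against PBS were 0.02 ± 0.08 (SE) with Tβ-MCA, 0.06 ± 0.08 with TCA and 0.06 ± 0.08 with GCA, and 0.03 ± 0.09 and 0.08 ± 0.09 without Tβ-MCA replicate 5 and GCA replicate 4. Leaving out each of the other samples in turn gave −0.04 to 0.08 with Tβ-MCA, so the sign of this difference is not fixed.

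Stk39 and Oxsr1 encode the kinases that WNK1 phosphorylates. Stk39, which encodes SPAK, had 5.25, 6.92 and 6.39 CPM in PBS replicates 3, 5 and 6 and 1.97, 4.32 and 5.19 CPM in Tβ-MCA replicates 3, 4 and 5. All Tβ-MCA samples were below the PBS samples (12.8% of all genes tested did the same), but replicate 5 lay only just below the lowest of them. Its log2 fold change was −0.68 ± 0.27 (SE), or −0.97 ± 0.27 without Tβ-MCA replicate 5. Within number 3 the levels were 1.97 with Tβ-MCA and 5.25 CPM with PBS, and within number 5 they were 5.19 and 6.92 CPM. TCA (5.03, 6.16 and 7.15 CPM) and GCA samples (5.61, 4.53 and 6.12 CPM) overlapped those with PBS, and GCA replicate 4 was the lowest sample outside the Tβ-MCA group. The log2 fold change of Stk39 with GCA was −0.19 ± 0.26 (SE), and −0.08 ± 0.29 without that sample.

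Oxsr1, which encodes OSR1, was the least variable of the 8 genes, and only 0.996% of the genes tested had a smaller SD of log2 CPM over the 12 samples. It had 49.2, 51.6 and 50.3 CPM with PBS, 49.2, 51.9 and 50.2 CPM with TCA, 51.3, 52.2 and 51.8 CPM with GCA, and 55.7, 51.3 and 52.6 CPM with Tβ-MCA. The highest of these values was 1.13 times the lowest. The log2 fold change of Tβ-MCA against PBS was 0.08 ± 0.06 (SE), or 0.09 ± 0.07 without replicate 5, and that of GCA was 0.04 ± 0.06, or 0.03 ± 0.07 without replicate 4. The RPKM scale gives reads per kilobase of merged exon, scaled to all reads counted on genes and without the TMM factor. On this scale the ratio of Oxsr1 to Stk39 was 26.1, 11.0 and 9.39 in Tβ-MCA replicates 3, 4 and 5. In PBS replicates 3, 5 and 6 it was 8.68, 6.90 and 7.30. The ratio was 9.07, 7.79 and 6.51 with TCA and 8.48, 10.7 and 7.84 with GCA.

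**Figure D2:**
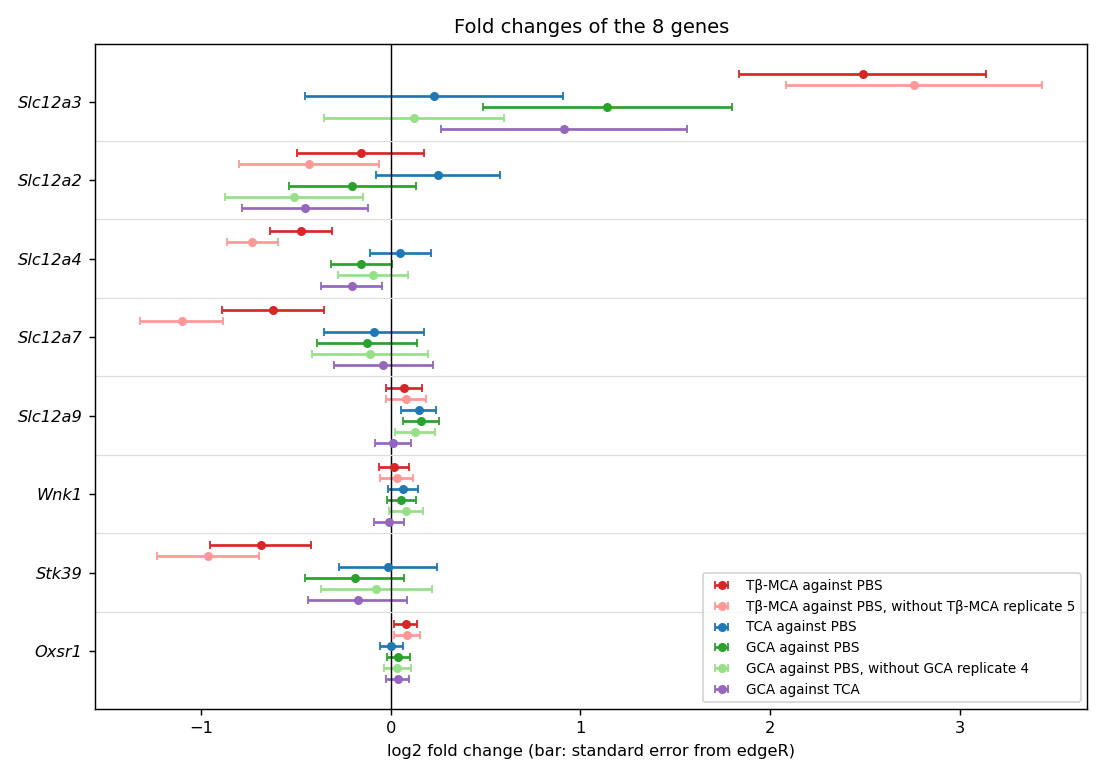
Log2 fold changes of the 8 genes from edgeR, with bars for the standard error, for each bile acid against PBS and for GCA against TCA. Slc12a3 with Tβ-MCA lay at 2.49, and at 2.76 without Tβ-MCA replicate 5, while its value with GCA moved from 1.14 to 0.12 when GCA replicate 4 was left out.

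Because the comparison of Tβ-MCA with PBS entered the choice of the genes, no count of calls among the 8 is given for it. Over these 8 genes its median log2 fold change was −0.07, and over all genes tested it was 0.00. With TCA against PBS, 0 of the 8 genes had an adjusted p under 0.05 by edgeR, and none had an unadjusted p under 0.05. Over all genes tested the shares were 0% at the adjusted threshold and 3.26% (546 genes) at the unadjusted threshold, and DESeq2 called 1 gene. With GCA against PBS the members gave the same counts of 0, beside 0% and 3.53% (591 genes) of all genes tested, and DESeq2 called 0 genes. Median log2 fold changes of the 8 genes were 0.06 with TCA and −0.04 with GCA. The 3 comparisons with PBS share their control samples.

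TCA and GCA are conjugates of the same bile acid, cholic acid, with taurine and with glycine, and they were given at the same dose for the same time, so this pair of compounds was compared directly. For Slc12a3 the log2 difference of GCA minus TCA was 0.91 with a 95% confidence interval from −0.56 to 2.39 (edgeR, adjusted p = 0.9998), and it was −0.11 without GCA replicate 4, with an interval from −1.17 to 0.95. When no filter on low counts was applied, edgeR gave an adjusted p of 5.10e-05 for a log2 difference of 0.91 with an SE of 0.16, and the cause of that change was not tested. Slc12a2 had a log2 difference of −0.45 (interval −1.15 to 0.25), which became −0.76 (−1.53 to 0.01) without GCA replicate 4. For Slc12a4 and Stk39 the differences were −0.21 (−0.55 to 0.14) and −0.17 (−0.74 to 0.39). Oxsr1, Wnk1 and Slc12a9 had the narrowest intervals, from −0.09 to 0.17, from −0.17 to 0.16 and from −0.19 to 0.21. For Slc12a7 the interval ran from −0.60 to 0.52. None of the 8 genes passed at the adjusted or the unadjusted threshold (0% and 2.46%, or 412, of all genes tested, edgeR), and DESeq2 called 0 genes. These intervals bound the differences and do not show that the compounds act alike. Tβ-MCA has another steroid nucleus, β-muricholic acid, and its labelled dose differs from that of TCA, so that its values stand beside those of TCA without a comparison: Slc12a3 had a mean of 15.0 ± 6.03 CPM with Tβ-MCA and 3.12 ± 0.513 CPM with TCA (SD, n = 3).

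Levels of different genes were compared on the RPKM scale, which takes account of exon length. In the PBS samples Wnk1 was highest (28.2 ± 1.72 RPKM, SD, n = 3), followed by Oxsr1 (9.31 ± 0.290), Slc12a4 (2.95 ± 0.271), Slc12a9 (2.66 ± 0.139), Stk39 (1.23 ± 0.180), Slc12a7 (0.780 ± 0.141), Slc12a3 (0.237 ± 0.0919) and Slc12a2 (0.122 ± 0.0200). Only the neighbours Slc12a4 and Slc12a9 overlapped in this order. The same order was found with TCA, and with GCA Slc12a9 and Slc12a4 changed places. With Tβ-MCA, Slc12a3 stood in position 5 instead of 7, at 1.38 ± 0.565 RPKM, and its samples overlapped those of Slc12a4 (2.19 ± 0.616) above it and of Stk39 (0.789 ± 0.341) below it. Slc12a3 has 11119 bases of merged exons in the deposited table, against 4279 for Slc12a4, which lowers its RPKM for a given count.

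**Figure D3:**
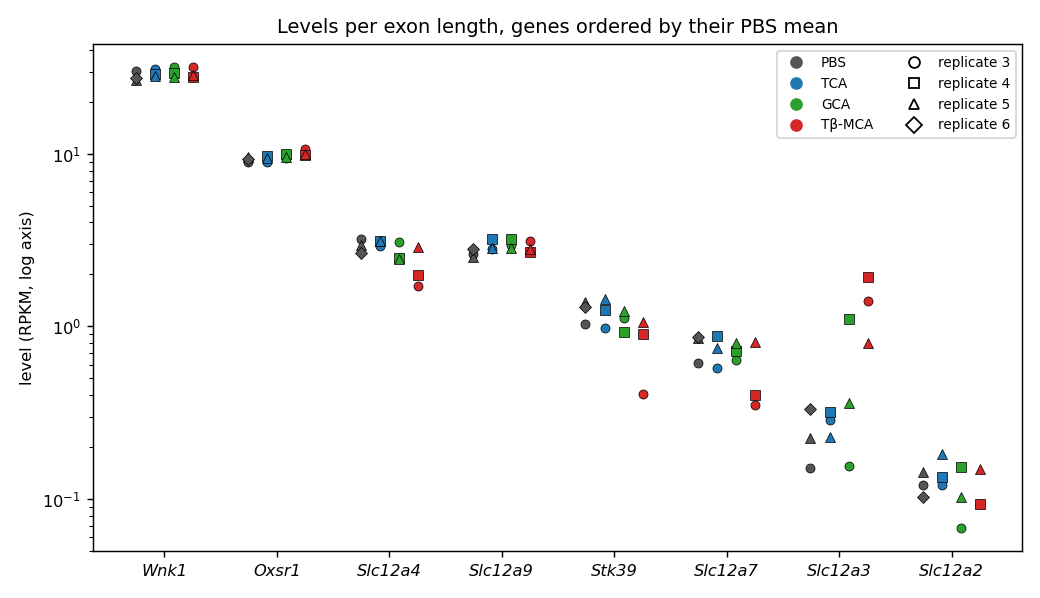
Level per exon length (RPKM, log axis) of the 8 genes in every sample, ordered by the mean of the PBS samples, with colours for the groups and symbols for the replicate number. Slc12a3 moved from between Slc12a7 and Slc12a2 in the PBS samples, at 0.237 RPKM on average, to 1.38 RPKM with Tβ-MCA, above the means of Stk39 and Slc12a7.

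The summed RPKM of the 5 transporters lay between 6.55 and 7.68 in all 12 samples, while its composition differed. Slc12a3 made up 2.24%, 3.35% and 4.92% of the sum in PBS replicates 3, 5 and 6 and 21.0%, 27.2% and 10.7% in Tβ-MCA replicates 3, 4 and 5. The share was 3.20% to 4.28% with TCA, and 2.23%, 14.3% and 5.47% in GCA replicates 3, 4 and 5. Slc12a4 contributed 39.4% to 47.6% with PBS and 25.5%, 28.0% and 38.6% in Tβ-MCA replicates 3, 4 and 5. Both shares are parts of the same sum, so a higher share of Slc12a3, the gene chosen for its level with Tβ-MCA, lowers that of Slc12a4.

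Levels of 4 genes (Slc12a3, Slc12a4, Slc12a7 and Stk39, chosen for display after their values were seen) are set beside markers of another cell type in the same samples. The summed level of 12 monocyte and macrophage markers, all of them detected, was 1147 to 1163 CPM with PBS, 1011 to 1200 CPM with TCA, 1090.5, 814 and 1120 CPM in GCA replicates 3, 4 and 5, and 327, 397 and 889 CPM in Tβ-MCA replicates 3, 4 and 5. Of the 12 markers, 11 were below every PBS sample in both Tβ-MCA replicates 3 and 4, 7 were so in all Tβ-MCA samples, and 7 in GCA replicate 4. The 4 samples lowest in these markers were thus the 4 highest in Slc12a3, and Tβ-MCA replicates 3 and 4 were also the lowest in Slc12a4, Slc12a7 and Stk39. Tβ-MCA replicate 5, at 889 CPM of these markers, lay within the range of the PBS samples for Slc12a4 and Slc12a7. The part of these cells in the levels of the 4 genes was not tested, and in bulk samples fewer cells of a type and less RNA per cell cannot be told apart.

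Other markers moved in the same libraries, so the order was not particular to the monocyte and macrophage markers. Tβ-MCA replicates 3, 4 and 5 and GCA replicate 4 were also the 4 samples lowest in the summed neutrophil, eosinophil and B cell markers. In GCA replicate 4, 12 of the 13 neutrophil markers were below every PBS sample. The sum of 8 eosinophil markers was 158 to 274 CPM with PBS and 60.3 to 140 CPM with Tβ-MCA, and that of 6 B cell markers was 7.55 to 12.8 and 3.78 to 5.92 CPM. Singly, 5 of the 8 eosinophil markers but only 2 of the 6 B cell markers were below every PBS sample in all Tβ-MCA samples. The 13 neutrophil markers summed to 53116 to 65391 CPM with PBS, 51119 to 62468 CPM with TCA, 48482 to 60065 CPM with GCA and 43198 to 48712 CPM with Tβ-MCA, and 10 of the 13 were below every PBS sample in all Tβ-MCA samples. Ly6g, the gene of the antigen named above for the enrichment, had 17.8 to 21.4 CPM with PBS and 7.54 to 12.9 CPM with Tβ-MCA. Sums of the erythroid markers (1.18 to 3.22 CPM over all samples), of the megakaryocyte markers (49.9 to 60.2 CPM) and of the basophil and mast cell markers (29.6 to 65.4 CPM) overlapped between the groups. T and NK cell markers summed to 2.41 to 3.59 CPM with PBS and 1.46 to 1.77 CPM with Tβ-MCA. Of the 7 found in the count table, only 1 was below every PBS sample in all Tβ-MCA samples, and Klrb1c was under 3 counts in every sample. The part of these cell types in the levels of the 8 genes was not tested. Mitochondrial genes took 0.369% to 0.492% of the reads.

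**Figure D4:**
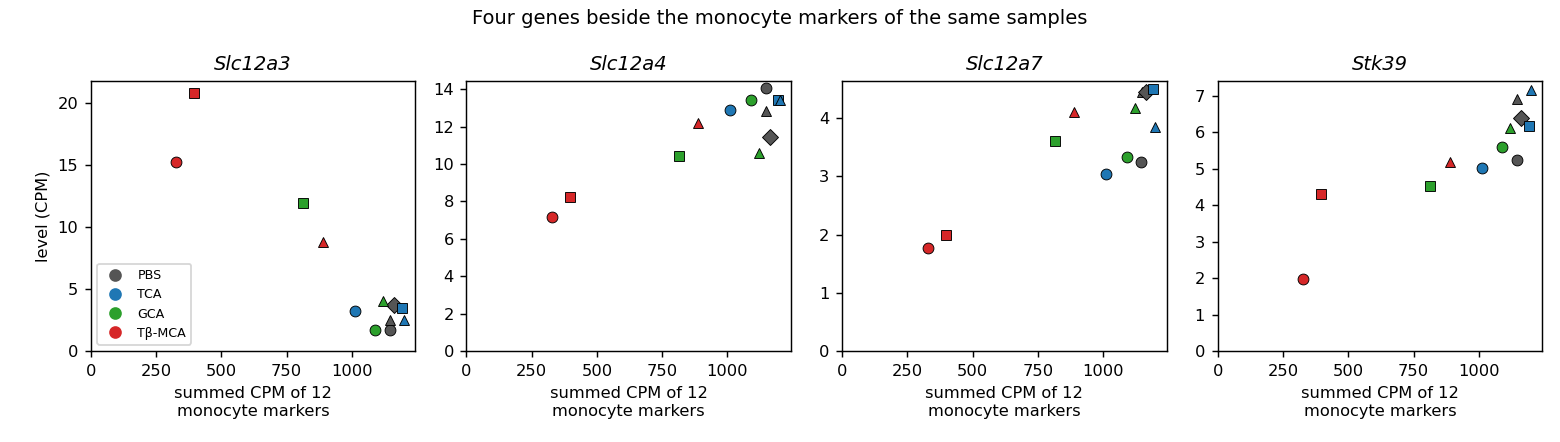
Level (CPM) of Slc12a3, Slc12a4, Slc12a7 and Stk39 in each sample against the summed CPM of 12 monocyte and macrophage markers in the same sample, both axes linear from 0, with colours for the groups and symbols (circle 3, square 4, triangle 5, diamond 6) for the replicate number. Tβ-MCA replicates 3 and 4, at 327 and 397 CPM of markers, had 15.3 and 20.8 CPM of Slc12a3, and GCA replicate 4, at 814 CPM, had 11.9 CPM.

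The genes whose log2 CPM varied most like that of Slc12a3 over the 12 samples were 1810043G02Rik, Tgfbr2 (a subunit of the TGF-β receptor), Sephs2 (an enzyme of selenium metabolism), Col9a2 (a collagen chain) and Arhgap24 (a GTPase-activating protein), with Pearson r from 0.963 to 0.977 and Spearman coefficients from 0.916 to 0.979. Without Tβ-MCA replicates 3 and 4, r over the other 10 samples was 0.927 to 0.962. Among the genes most like Stk39 were Rhoa (a small GTPase), Arf1 (a GTPase of vesicle transport), 4732465J04Rik and Ccl6 (a chemokine), with r from 0.969 to 0.975, and from 0.846 to 0.913 without the same 2 samples. These correlations describe 12 libraries of 4 groups, all points come from the same libraries and share their depth, and the genes were picked as the highest of all genes tested.

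Other genes of the pathway were followed in 5 lists, which overlap by a few genes and together hold 95 genes. Of these, 90 were in the table and 72 passed the filter on low counts. For Tβ-MCA against PBS, 8 of the 72 had a higher level and 2 a lower level at an adjusted p under 0.05 by edgeR (13.9%, beside 7.62% of all genes tested), and the median log2 fold change of the 72 was 0.01. Leaving out Tβ-MCA replicate 5 gave 14 higher and 9 lower (31.9%, beside 18% of all genes). None of the 72 was called when PBS replicate 3, PBS replicate 5, Tβ-MCA replicate 3 or Tβ-MCA replicate 4 was left out, and 1 was called without PBS replicate 6. The calls named below are those of the fit with all 12 samples, and each was lost without any 1 of those 4 libraries. In TCA against PBS, GCA against PBS and GCA against TCA, edgeR called 0 of the 72 genes, with 2, 4 and 3 at an unadjusted p under 0.05.

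Among the other family members, 4 of 7 genes were tested, and 0 were called with all samples. Slc12a5, which encodes the mainly neuronal potassium-chloride cotransporter KCC2, had 13.3, 11.4 and 10.1 CPM with PBS and 23.5, 17.0 and 13.1 CPM in Tβ-MCA replicates 3, 4 and 5. Its log2 fold change of 0.62 ± 0.20 did not pass the test (edgeR, adjusted p = 0.0700), and without Tβ-MCA replicate 5 it was 0.80 ± 0.17 (adjusted p = 0.00519). Wnk2 had 5.91, 5.41 and 5.26 CPM with PBS and 2.87, 2.43 and 5.73 CPM with Tβ-MCA, so that replicate 5 again lay with the PBS samples. Its log2 fold change was −0.58 ± 0.29 (edgeR, adjusted p = 0.232), and −1.06 ± 0.23 without Tβ-MCA replicate 5 (adjusted p = 0.00441). Replicate 5 was the Tβ-MCA sample nearest the PBS samples on the first principal component. Without it 18% of all genes tested were called, against 7.62% with all samples. Slc12a5 and Wnk2 were named after their values were seen, so their values without replicate 5 are a description only. Wnk4 was at 0.483 to 1.65 CPM in all samples, Wnk3 had at most 4 counts in any sample, and Slc12a1, the kidney transporter NKCC2, had 0 counts in 11 samples and 2 in the other.

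Among 24 tested regulators and partners of the cascade, Nedd4l was higher and Klhl2 lower with Tβ-MCA, and 22 did not pass the test. Over all genes tested 4.44% were called higher and 3.18% lower in this comparison. Nedd4l, a ubiquitin ligase known to act on NCC, had 31.7, 29.0 and 29.2 CPM with PBS and 37.8, 38.2 and 33.7 CPM with Tβ-MCA (log2 fold change 0.29 ± 0.07 SE, edgeR, adjusted p = 0.0331). Klhl2, an adaptor through which a cullin 3 ubiquitin ligase recognises WNK kinases, had 124, 124 and 111 CPM with PBS and 80.6, 84.3 and 95.6 CPM with Tβ-MCA (−0.46 ± 0.08, adjusted p = 0.0206). In both genes all 3 Tβ-MCA samples lay outside the range of the PBS samples, as was the case for 14.1% (higher) and 12.8% (lower) of all genes tested. The related adaptor Klhl3, known from inherited hypertension together with the WNK kinases, had 0.259 to 0.971 CPM over all samples and did not pass the test.

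Chloride channels and exchangers showed 4 higher and 0 lower genes among 21 tested, beside the same 4.44% and 3.18% of all genes. These were Clic4 (an intracellular chloride channel protein, log2 fold change 0.41 ± 0.09 SE), Clcn7 (the lysosomal chloride-proton exchanger, 0.43 ± 0.10), Lrrc8b (a subunit of the volume-regulated anion channel, 0.60 ± 0.15) and Slc26a11 (an anion exchanger, 0.74 ± 0.18), with edgeR adjusted p between 0.0224 and 0.0347. Slc26a11, the largest of these 4 differences, had 15.7, 22.1 and 22.1 CPM with PBS and 33.3, 40.6 and 26.3 CPM with Tβ-MCA. In the sodium and potassium list, 3 of 20 tested genes were higher and 1 was lower, to be read against those shares of all genes. Trpm2, an oxidant-activated cation channel abundant in neutrophils, had 939, 1213 and 1249 CPM with PBS and 2199, 2116 and 1458 CPM with Tβ-MCA (0.76 ± 0.16, edgeR, adjusted p = 0.0239). Hvcn1, the voltage-gated proton channel, was higher by a log2 fold change of 0.39 ± 0.11 (edgeR, adjusted p = 0.0478).

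Genes that mark the distal convoluted tubule, where Slc12a3 is normally most abundant, were for the most part too low to test. Of 16 such genes 14 were in the table, 6 passed the filter on low counts, and 0 of these 6 were called with all samples. The 6 include Wnk4 and Klhl3, which other lists hold too. The median log2 fold change of the 6 was −0.11. Kcnj10, a potassium channel, had 1.43, 0.589 and 1.08 CPM with PBS and 2, 6 and 34 counts (0.0598, 0.162 and 0.910 CPM) in Tβ-MCA replicates 3, 4 and 5. Its log2 fold change was −1.42 ± 0.62 (SE, edgeR, adjusted p = 0.171), and −3.16 ± 0.55 without Tβ-MCA replicate 5 (adjusted p = 0.00111). Slc8a1, a sodium-calcium exchanger that the sodium and potassium list also holds, had −0.67 ± 0.22 (adjusted p = 0.0784 by edgeR), and −0.98 ± 0.19 without Tβ-MCA replicate 5 (adjusted p = 0.00259). Cnnm2, a membrane protein of magnesium transport, had 0.54 ± 0.18 (edgeR, adjusted p = 0.0766), and 0.68 ± 0.18 without that replicate (adjusted p = 0.0165). Kcnj10, Slc8a1 and Cnnm2 were named after their values were seen, and 18% of all genes tested were called without that replicate.

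**Figure D5:**
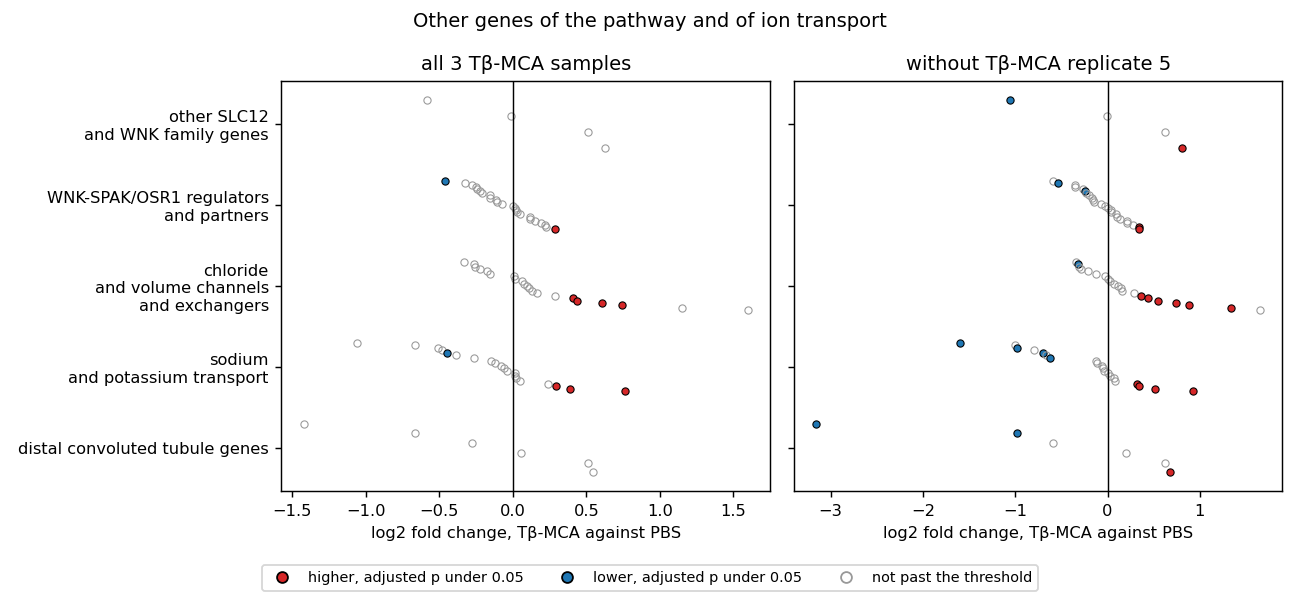
Log2 fold change of Tβ-MCA against PBS for the tested genes of the 5 lists, one point per gene, with all samples on the left and without Tβ-MCA replicate 5 on the right (the horizontal scales differ). Filled points mark an adjusted p under 0.05 by edgeR, which 10 of 72 genes reached on the left and 23 of 72 on the right.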

How the data were processed

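RNA of mouse bone marrow neutrophils was sequenced in 12 samples, 3 for each of 4 treatments. Per the labels, RNA was extracted with TRIzol and libraries were made with a stranded mRNA kit. The submitters' processing notes name Trimmomatic 0.36, STAR 2.5.3a, featureCounts and Subread 1.5.1, and the builds GRCm38 and mm10. The authors deposited raw counts of reads on the exons of each gene, and RPKM values, which are those counts divided by the length of merged exons in kilobases and scaled to the reads counted on genes. RPKM recalculated from the deposited counts differed by a relative difference of at most 1.3e-06. Whether counting used strand or mates is not given in the sources used here, but in every sample genes with a count of 2 were 2.93 to 3.62 times as many as genes with a count of 1, so a fragment may have been counted by both mates, and 3 counts may stand for fewer than 3 fragments. Columns of GCA samples carry the name GA in the tables and were assigned by treatment and number.

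The 8 genes and all gene lists were chosen with earlier results of these data known. Counts were scaled by TMM, filtered with filterByExpr by group (16761 genes left) and compared with the robust quasi-likelihood test of edgeR 4.0.16 in R 4.3.3, with 1 fit over all 12 samples and Benjamini-Hochberg adjustment over all genes tested. All 8 genes passed the filter and had at least 3 counts in all 12 samples. The fit was tested on simulated counts. CPM values of genes were computed from the counts and the total of the sample over the genes left by the filter, multiplied by its TMM factor. These factors ran from 0.972 to 1.03, and the deposited RPKM values do not contain them. For plots and correlations log2 CPM was used with a prior count of 2. The thresholds of the study were taken as an unadjusted p under 0.05 and a fold change of at least 2. Alternatives were DESeq2 1.42.0, DESeq2-type size factors (RLE) in edgeR, total library size, no filter, at least 10 counts in every sample, a fit of the 2 groups alone, the replicate number as a block, leaving out each sample, and, for the 8 genes, limma 3.58.1 on log2(RPKM + 1) for genes with a mean RPKM of at least 0.5. Tables and plots were made with Python 3.11.15, numpy 2.4.6, pandas 2.3.3 and matplotlib 3.10.9. The genes named were the 8 members, called genes of the 5 pathway lists (at most 5 of lowest p per list and direction), neighbours of Slc12a3 and genes overlapping a member, the 5 genes most correlated with Slc12a3 and with Stk39, and cell type markers. Slc12a5, Slc12a1, the further WNK genes, Klhl3, Kcnj10, Slc8a1 and Cnnm2 fall outside this rule and were named after their values were seen. Some genes that enter the counts of the lists are not reported here by name. Promoter windows came from a RefSeq table for GRCm38.p6, in which 7 of the 8 genes were used.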

Additional observations from a re-analysis of the deposited data

How the results depend on the processing

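Slc12a3 kept its direction with Tβ-MCA under every alternative (log2 fold change 0.92 to 2.82). It was chosen on these samples, so this is a description only. The lowest value, 0.92, came from limma on log2(RPKM + 1), a scale that understates low genes. Slc12a3 passed the limma filter with the help of its Tβ-MCA samples (mean 1.38 RPKM, against 0.237 with PBS). Slc12a4, Slc12a7 and Stk39 stayed below 0 with Tβ-MCA under every alternative run (−0.73 to −0.32, −1.10 to −0.24 and −0.97 to −0.34). So did Slc12a2 (−0.43 to −0.0353), while Slc12a9 (0.0043 to 0.12) and Oxsr1 (0.0449 to 0.13) stayed above 0. With no filter on low counts, edgeR called Slc12a3 for GCA against PBS (1.15, adjusted p = 3.13e-08) and GCA against TCA (0.91, adjusted p = 5.10e-05), and under the other alternatives it did not. Signs that changed were of values near 0: for TCA against PBS, Slc12a7 (0.0009) and Stk39 (0.0079) with the replicate block and Oxsr1 (−0.0001) with at least 10 counts, and for GCA against TCA, Wnk1 with total library size (0.0027) and with limma (0.0019). Leaving out 1 sample gave ranges that cross 0 for Tβ-MCA against PBS in Wnk1 (−0.0407 to 0.0774), for TCA against PBS in Slc12a3 (−0.0072 to 0.56), Slc12a4 (−0.0226 to 0.12), Slc12a7 (−0.23 to 0.0446), Stk39 (−0.14 to 0.10) and Oxsr1 (−0.0219 to 0.0189), for GCA against PBS in Slc12a2 (−0.51 to 0.0293) and Wnk1 (−0.0067 to 0.12), and for GCA against TCA in Slc12a3 (−0.11 to 1.35), Slc12a7 (−0.17 to 0.11), Slc12a9 (−0.0205 to 0.0733) and Wnk1 (−0.0705 to 0.0478).

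The number of genes called for Tβ-MCA against PBS at an adjusted p under 0.05 was 1278, and 2406 with no filter, 2035 with DESeq2, 0 with the 2 groups alone and 0 to 3076 when 1 sample was left out (3076 without Tβ-MCA replicate 5, 168 without PBS replicate 6 and 0 without any other of these 6). At the thresholds of the study the count was 494, and 849 with no filter, 241 with at least 10 counts and 363 to 961 with 1 sample left out. Total library size moved the share called higher from 745 of 1278 to 1013 of 1408. Of the 72 pathway genes tested in the main fit, 10 were called. The count of called genes of the 5 lists was 22 with no filter, 17 with DESeq2, 0 with the 2 groups alone and 0 to 23 with 1 sample left out. Filtering differed between these fits, so the list genes tested were not always the same 72. Adjusted counts of 0 became 37, 36 and 42 with no filter for TCA against PBS, GCA against PBS and GCA against TCA, and 1 for TCA with DESeq2. At the thresholds of the study these comparisons gave 78, 89 and 74 genes, and 287, 308 and 261 with no filter, 8, 7 and 7 with at least 10 counts, 164, 184 and 168 with DESeq2, and 92 to 127, 97 to 137 and 94 to 122 with 1 sample left out. GCA against TCA gave 41 with the 2 groups alone. The cause of these changes was not tested. Slc12a2 had too low a mean RPKM for limma.

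Deviations from the group means of log2 CPM were correlated between samples of different groups. Same-numbered samples had a mean r of 0.15 to 0.229 in the 4 comparisons, and other pairs −0.086 to −0.042. Samples numbered 3 correlated at 0.240 to 0.326. Over the 3 shared numbers of GCA and TCA, r was 0.308, 0.067 and 0.147, and GCA replicate 4 correlated best with TCA replicate 5. Numbers 4 and 5 were thus not shown to pair the samples, and the main fit had no term for the number. With the replicate block, TCA against PBS gave 3 called genes instead of 0, and 117 instead of 78 at the thresholds of the study. Tβ-MCA against PBS gave 1498 instead of 1278, and no call of the 8 genes changed for TCA or GCA. Slc12a2, with 16 to 44 counts per sample, is the gene that depth limits most.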
